A study of Mus musculus with 8 samples.

Results

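The genes described here encode scaffold, adhesion, kinase and small GTPase regulator proteins of the postsynaptic density, most of them of excitatory synapses. They were chosen by name and not by a rule on measured values, but with earlier results of these data known. Each of the 37 symbols was found among the 53379 genes of the count table. All 37 had enough counts to be tested, among 16914 genes tested in all. RNA was sequenced from the cingulate cortex of 4 WT and 4 Mvp KO mice, all male and on the C57BL/6N background. The WT mice carry the intact gene (*Mvp+/+*), and the Mvp KO mice are homozygous (*Mvp-/-*) for a gene trap from 1 embryonic stem cell clone, a β-galactosidase and neomycin cassette in intron 1 that ends transcription with its own polyA signal. Neither group received a treatment, and the age at which this tissue was taken is not given in the sources used here. The study sequenced this tissue to look for pathways that change when *Mvp*, which encodes the major vault protein, is lost. For the postsynaptic genes the question is which of their transcripts differ between the genotypes, and by how much the others could still differ.

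At an excitatory synapse, glutamate receptors of the spine are held opposite the release site by a layered protein mesh. Membrane-associated guanylate kinases (the Dlg genes) bind receptors and adhesion molecules near the membrane, SAPAP proteins (the Dlgap genes) link them to SHANK proteins, and Homer proteins join SHANK to metabotropic glutamate receptors deeper in the mesh. Calcium entering through receptors activates CaM kinase II, and regulators of Ras, Rap and Arf GTPases together with actin-binding proteins shape the spine.

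The samples held between 28456504 and 42854368 counts, and values below are CPM, counts relative to the TMM-scaled total of their sample, unless a length is named. *Mvp*, the targeted gene, was at 6.81, 7.12, 7.89 and 5.49 CPM in WT replicates 1 to 4 and at 1.45, 1.44, 2.13 and 1.51 CPM in Mvp KO replicates 1 to 4. Its groups did not overlap (p = 0.0286 by a two-sided exact permutation test, which cannot go lower with 4 against 4 samples). Its log2 fold change was -2.06, with an adjusted p of 0.0162 by the quasi-likelihood test of edgeR. The direction held in each alternative fit, but the adjusted p did not pass 0.05 with a replicate block (0.0850), with an oligodendrocyte score as a covariate (0.0805) or in 6 of the 8 edgeR fits that left out a sample (all but those without WT replicate 4 and Mvp KO replicate 3). Of the excitatory neuron markers *Slc17a7*, *Neurod6*, *Neurod2*, *Tbr1* and *Emx1*, the least abundant had a mean of 11.6 CPM, so that the genes that mark cortical excitatory neurons were all present. WT replicate 4 stood apart from the other 7 samples over all genes, at 71.5 on the first principal component against -20.4 to -2.78. It was kept, and log2 fold changes that moved most without it are given both ways.

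Per kilobase of exon, the scale on which genes can be compared with each other, the levels of the 37 genes covered a wide range. *Nrgn* (neurogranin, which binds calmodulin in dendrites) had the highest level with 513 ± 64.1 CPM per kilobase (SD, n = 8), followed by *Camk2a*, the alpha subunit of CaM kinase II, with 418 ± 66.4. *Ppp1r9b* (spinophilin) and *Camk2b* came next with 95.8 ± 14.5 and 91.6 ± 4.57 CPM per kilobase. *Homer3* was lowest with 1.43 ± 0.203 CPM per kilobase, and rested on 117 to 248 counts a sample where *Camk2a* had 74216 to 154446. Exons of all annotated transcripts were joined to give these lengths. With the longest transcript as the length instead, *Camk2a* was at 627 CPM per kilobase, above *Nrgn*. On that scale *Camk2b*, at 203 CPM per kilobase, was also above *Ppp1r9b*, at 108.

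**Figure D1:**
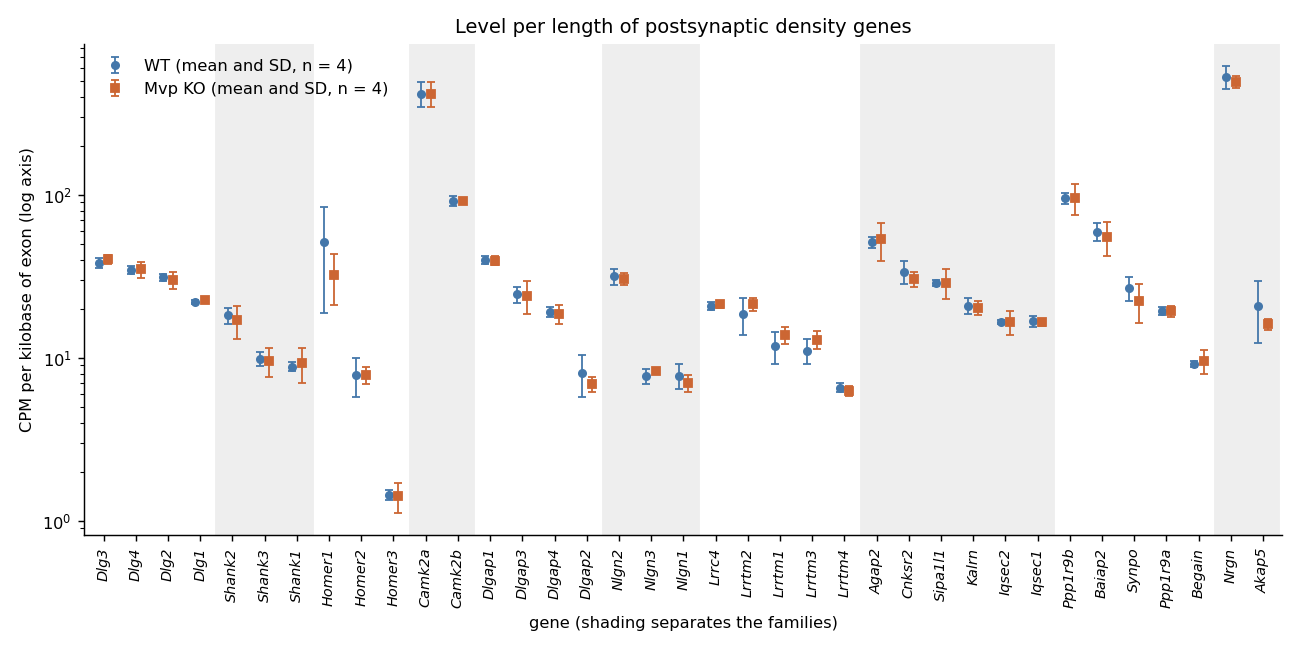
Level of each of the 37 genes in CPM per kilobase of joined exons (vertical log axis), with the mean (point) and SD (bar) of the 4 WT and the 4 Mvp KO samples and families set apart by shading. *Nrgn* and *Camk2a* lie highest and *Homer3* lowest, the genotypes lie close together for most genes, and the WT bars are widest for *Homer1* and *Akap5*.

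Within families, the leading member was mostly the same in each of the 8 samples. *Camk2a* was above *Camk2b* in all 8, by 3.22 to 5.34 times per kilobase. Among the Homer genes the order was *Homer1*, *Homer2* and *Homer3* in all 8 samples, and among the neuroligins *Nlgn2* was above *Nlgn3* in all 8, by 3.37 to 5.51 times. *Shank2* was above *Shank3* in all 8 samples, while *Shank3* and *Shank1* did not keep their order (*Shank3* higher in 5 of 8). *Dlgap1* led the SAPAP genes, *Ppp1r9b* the spine actin genes and *Agap2* the GTPase regulators in all 8. Neighbours that changed places between samples were *Nlgn3* and *Nlgn1* (7 of 8), *Lrrc4* and *Lrrtm2* (3 of 8), *Lrrtm1* and *Lrrtm3* (7 of 8), *Cnksr2* and *Sipa1l1* (7 of 8), *Kalrn* and *Iqsec2* (7 of 8), *Iqsec2* and *Iqsec1* (3 of 8), and *Synpo* and *Ppp1r9a* (7 of 8), where each number counts the samples in which the gene with the higher mean was also higher. The orders *Dlg3* above *Dlg4* and *Dlgap3* above *Dlgap4* held in all 8 samples with joined exons but in 0 with the longest transcript as the length. Likewise *Agap2* above *Cnksr2* went from 8 samples to 4, and *Sipa1l1* above *Kalrn* from 8 to 3. Other orders became steadier with the longest transcript. *Shank3* above *Shank1* went from 5 samples to 8, *Kalrn* above *Iqsec2* from 7 to 8, and *Iqsec2* above *Iqsec1* from 3 to 0. *Nlgn3* above *Nlgn1* and *Lrrtm1* above *Lrrtm3* each went from 7 to 5, and *Lrrc4* above *Lrrtm2* from 3 to 4.

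Between the genotypes, 0 of the 37 genes passed an adjusted p of 0.05 (edgeR, quasi-likelihood test, Benjamini-Hochberg adjustment over all genes tested), where 0.00591% of all genes did. At an unadjusted p under 0.05 there were also 0 of 37, against 1.56% of all genes (0.698% higher and 0.863% lower in Mvp KO). At that p DESeq2's Wald test also gave 0 of 37 (1.6% of all genes), as did limma voom (3.28% of all genes). For 0 of 37 genes did the samples of one genotype all lie above those of the other, against 1.52% of all genes (0.828% higher and 0.692% lower in Mvp KO). The log2 fold change of Mvp KO over WT was below 0 for 24 genes and above 0 for 13, where 50.0% of all genes were below 0. Its median over the 37 genes was -0.016, and it ran from -0.68 for *Homer1* to 0.23 for *Lrrtm1*.

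For most of these genes the 95% interval left out changes of 1.5-fold or more in either direction. For 31 of the 37 both ends of the 95% interval were under 1.5-fold from equality, against 64.5% of all genes. The 6 with wider intervals were *Homer1*, *Akap5*, *Synpo*, *Dlgap2*, *Lrrtm1* and *Lrrtm2*. Without WT replicate 4 this was so for 36 genes, against 71.4% of all genes, and *Homer1* was the exception. Without that sample 0 of 37 genes passed the adjusted p (0.00583% of all genes), 0 had an unadjusted p under 0.05 (1.34% of all genes), and the median log2 fold change was -0.0031. In bulk tissue, fewer cells of a type and less RNA per cell cannot be told apart, and this holds for each value given here.

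**Figure D2:**
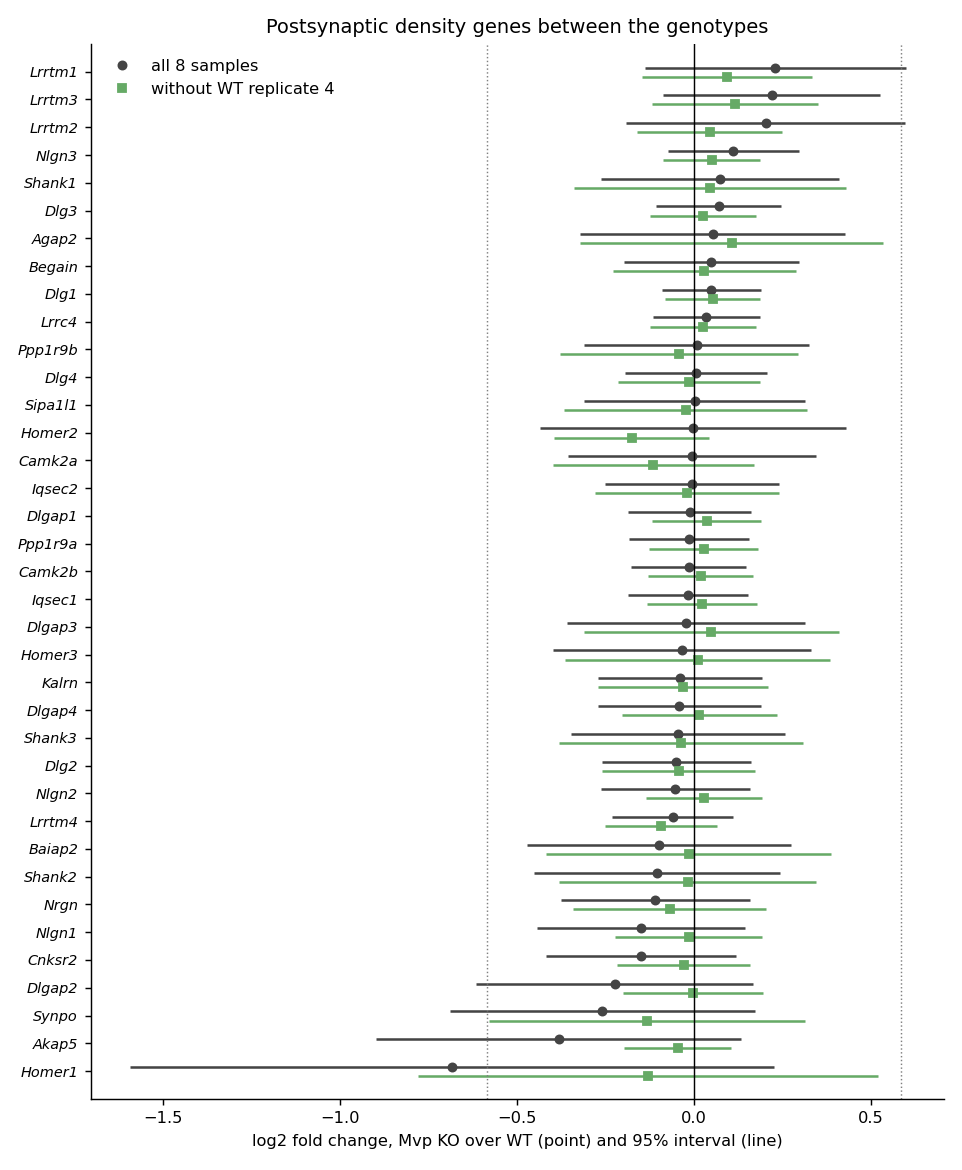
Log2 fold change of Mvp KO over WT (horizontal axis) for each of the 37 genes, with its 95% interval, from all 8 samples (grey circles) and without WT replicate 4 (green squares). Dotted lines mark a fold of 1.5 in each direction. All intervals include 0, and those of *Homer1*, *Akap5*, *Dlgap2*, *Lrrtm1* and *Lrrtm2* become narrower and move toward 0 without that sample.

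The 4 membrane-associated guanylate kinase genes were among the steadiest. *Dlg3* was at 231, 225, 239 and 202 CPM in WT replicates 1 to 4 and at 220.1, 224, 244 and 252 CPM in Mvp KO replicates 1 to 4. The groups overlapped, with WT replicate 4 lowest and a log2 fold change of 0.069 (standard error 0.0784). *Dlg4*, which encodes PSD-95, the most used marker protein of the density, lay between 438 and 496 CPM in WT and between 418 and 523 CPM in Mvp KO. Its log2 fold change was 0.0050 with a 95% interval from -0.19 to 0.20. *Dlg1* ran from 226 to 257 CPM over all 8 samples and *Dlg2* from 416 to 544 CPM.

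The SHANK genes, master scaffolds that tie the receptor layer to Homer and to actin, varied more between Mvp KO samples than between WT samples. *Shank2* was at 193, 185, 178 and 229 CPM in WT and at 149, 150.4, 196 and 236 CPM in Mvp KO. Mvp KO replicates 1 and 2 were the lowest of 8 and Mvp KO replicate 4 the highest, so that the groups overlapped (log2 fold change -0.10, standard error 0.155, and -0.018 without WT replicate 4). *Shank1* showed 86.8 to 101 CPM in WT and 74.6 to 131 CPM in Mvp KO, and *Shank3* showed 80.1 to 101 CPM in WT and 75.5 to 114 CPM in Mvp KO. For all 3 genes Mvp KO replicate 4 was the highest sample.

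The widest spread belonged to *Homer1*. Homer proteins bind metabotropic glutamate receptors, and a short form of *Homer1* that lacks the coiled coil is made after neuronal activity. *Homer1* was at 391, 438, 434 and 1205 CPM in WT replicates 1 to 4 and at 367, 204, 462 and 503 CPM in Mvp KO replicates 1 to 4. WT replicate 4 was 2.77 times the median of the other 7 samples, and Mvp KO replicate 2 was the lowest. The log2 fold change was -0.68 (standard error 0.404, unadjusted p 0.124 by edgeR) and became -0.13 (standard error 0.277) without WT replicate 4. The table gives 1 count a gene, so the short and long forms cannot be separated.

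*Homer2* departed the other way in the same sample, at 120.5, 112, 105 and 60.9 CPM in WT and at 90.01, 87.4, 109.5 and 109.8 CPM in Mvp KO. Its value in WT replicate 4 was the lowest of 8 and 0.556 times the median of the others. The fold change between genotypes was near 0 on the log2 scale with all samples (-0.0043, standard error 0.192) and -0.18 (standard error 0.0976) without WT replicate 4. The ratio of *Homer1* to *Homer2* per kilobase was 20.8 in that sample and 2.46 to 4.83 in the other 7. *Homer3*, mostly known from cerebellum, lay between 4.05 and 6.19 CPM. On the other strand 25.4% of its exonic bases are annotated to another gene, which matters if counting did not use strand.

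Because *Homer1*, *Homer2* and *Akap5* departed most from the other samples in WT replicate 4, the 250 bases before a RefSeq start (GRCm38.p6) of each are shown, 5′ to 3′ on the strand of the gene. The *Homer1* window is chr13:93303507-93303756 on the plus strand, that of *Homer2* is chr7:81706926-81707175 on the minus strand, and that of *Akap5* is chr12:76324641-76324890 on the plus strand. Capitals mark TGACG, the core of the cAMP response element.
Homer1: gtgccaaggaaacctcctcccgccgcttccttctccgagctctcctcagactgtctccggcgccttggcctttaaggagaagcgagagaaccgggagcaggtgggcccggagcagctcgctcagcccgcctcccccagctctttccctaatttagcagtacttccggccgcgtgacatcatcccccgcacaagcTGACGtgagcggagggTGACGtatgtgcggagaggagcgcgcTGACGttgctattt
Homer2: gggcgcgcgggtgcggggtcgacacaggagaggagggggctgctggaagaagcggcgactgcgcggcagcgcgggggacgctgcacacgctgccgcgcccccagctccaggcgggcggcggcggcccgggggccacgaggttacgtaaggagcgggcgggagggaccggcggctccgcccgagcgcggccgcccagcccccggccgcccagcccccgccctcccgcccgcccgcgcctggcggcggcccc
Akap5: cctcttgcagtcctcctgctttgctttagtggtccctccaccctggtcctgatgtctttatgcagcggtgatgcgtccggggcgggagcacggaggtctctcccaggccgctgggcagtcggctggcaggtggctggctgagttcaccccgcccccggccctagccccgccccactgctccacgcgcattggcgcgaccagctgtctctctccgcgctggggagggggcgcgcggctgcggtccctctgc

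The letters TGACG were searched on both strands, and they occurred 3 times in the *Homer1* window shown and 0 times in those of *Homer2* and *Akap5*. RefSeq also gives another *Homer1* window, chr13:93307784-93308033, and another *Homer2* window, chr7:81692966-81693215, each with 0 occurrences. Over 32851 such windows of the RefSeq table, 17.8% held TGACG at least once and 0.688% held it 3 times or more. The cut of 3 is the count of the *Homer1* window itself, a window shown for its gene's departure. The 0.688% therefore cannot serve as a measure of chance. A window was found for 30 of the 37 genes, 52 windows in all, of which 4 (7.69%) held TGACG, in *Cnksr2*, *Dlg3*, *Dlg4* and *Homer1*. The full element TGACGTCA, which contains TGACG, occurred in 1.55% of all windows and in 0 of the 52, and the AP-1 element TGANTCA in 6.75% and in 0. A match describes letters and is not a measured binding site.

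Of the SAPAP genes, whose proteins bridge guanylate kinases and SHANK, *Dlgap2* stood out in 1 sample. *Dlgap2* was at 41.2, 45.1, 41.9 and 70.9 CPM in WT and at 38.2, 39.1, 45.7 and 47.2 CPM in Mvp KO. WT replicate 4 was 1.69 times the median of the others, and the rest of the samples lay close together in both genotypes. The log2 fold change of -0.22 (standard error 0.174) became -0.0031 (standard error 0.0882) without it. *Dlgap1*, the most abundant of the family, was at 683, 687, 706 and 778 CPM in WT and at 640.5, 718, 748 and 722 CPM in Mvp KO, and its log2 fold change was -0.012 with a 95% interval from -0.19 to 0.16. *Dlgap3* showed 99.97 to 126 CPM in WT and 91.6 to 146 CPM in Mvp KO, and *Dlgap4* 155 to 179 and 131 to 182 CPM.

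The CaM kinase II genes, whose product is among the most abundant proteins of the density, did not move together in WT replicate 4. *Camk2a* was at 3229, 3557, 3354 and 2357 CPM in WT and at 2535, 2787, 3450 and 3681 CPM in Mvp KO. The groups overlapped, with WT replicate 4 lowest of 8 and Mvp KO replicates 1 and 2 next. *Camk2b*, in contrast, reached its highest value of 895 CPM in WT replicate 4, where the others lay between 774 and 878 CPM. The ratio of *Camk2a* to *Camk2b* per kilobase was 3.22 in WT replicate 4 and 3.84 to 5.34 elsewhere. Between genotypes the log2 fold change was -0.0051 (standard error 0.156) for *Camk2a*, which became -0.12 without WT replicate 4, and -0.016 (standard error 0.0725) for *Camk2b*.

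*Nrgn* was at 614, 894, 751 and 832 CPM in WT and at 694, 797, 718 and 656 CPM in Mvp KO. Both extremes of the 8 samples were WT samples, and WT replicate 4 lay inside the range of the others (log2 fold change -0.11, standard error 0.119). *Akap5*, which anchors protein kinase A and calcineurin near receptors, was at 115, 112, 113 and 231 CPM in WT and at 98.6, 115, 108 and 115 CPM in Mvp KO. Apart from WT replicate 4, at 2.05 times the median of the others, the samples covered a narrow range. The log2 fold change of *Akap5* was -0.38 (standard error 0.229, unadjusted p 0.128 by edgeR) with all samples and -0.047 (95% interval -0.20 to 0.10) without that sample.

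Neuroligins bind presynaptic neurexins across the cleft. *Nlgn2*, whose protein is found mainly at inhibitory synapses, was at 167, 179, 174 and 212 CPM in WT and at 177, 160.2, 173 and 195 CPM in Mvp KO. *Nlgn3* was at 79.3, 70.4, 75.2 and 61.6 CPM in WT and at 79.5, 73.8, 78.3 and 77.8 CPM in Mvp KO. For *Nlgn2* the highest sample was WT replicate 4, for *Nlgn3* it was the lowest, and the groups overlapped for both. The log2 fold change of *Nlgn3* was 0.11 (standard error 0.0825) and 0.049 without WT replicate 4. On the same strand, 41.2% of its exonic bases are annotated to another gene as well, and a read there may not have been counted. *Nlgn1* reached 131 CPM in WT replicate 4 and lay between 79.0 and 104 CPM elsewhere, so that its ratio to *Nlgn3* per kilobase was 1.47 in that sample and 0.686 to 0.973 in the others. Its log2 fold change of -0.15 became -0.015 without that sample. For *Nlgn1*, 9.16% of the exonic bases lie opposite another gene.

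The leucine-rich repeat adhesion genes differed among themselves in the same sample. The Lrrtm proteins bind neurexins or heparan sulfate proteoglycans of the presynaptic side. *Lrrtm1* was at 44.0, 35.3, 39.2 and 24.8 CPM in WT and at 35.3, 42.9, 42.7 and 47.3 CPM in Mvp KO. *Lrrtm2* was at 125, 111, 138 and 71.9 CPM in WT and at 127, 114, 135 and 138 CPM in Mvp KO. *Lrrtm3* was at 52.0, 46.1, 54.2 and 36.3 CPM in WT and at 45.0, 59.3, 55.6 and 59.7 CPM in Mvp KO. For all 3 the lowest of the 8 samples was WT replicate 4 and the highest Mvp KO replicate 4, which for *Lrrtm2* was level with WT replicate 3. Their log2 fold changes of 0.23 (standard error 0.164), 0.20 (standard error 0.176) and 0.22 (standard error 0.137) became 0.093, 0.044 and 0.12 without WT replicate 4.

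*Lrrtm4* and *Lrrc4* did not share this. *Lrrtm4* lay between 35.9 and 43.2 CPM in all samples, with WT replicate 4 inside the range, and 25.1% of its exonic bases lie opposite another gene. *Lrrc4*, which encodes the netrin-G ligand NGL-2, was at 78.9, 90.2, 82.9 and 81.5 CPM in WT and at 82.8, 90.6, 81.4 and 86.8 CPM in Mvp KO. Its groups overlapped over a narrow range, with a 95% interval of the log2 fold change from -0.12 to 0.19.

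Among the GTPase regulators, *Agap2* (an Arf GTPase-activating protein) was at 308, 288, 289 and 337 CPM in WT and at 331, 225, 289 and 423 CPM in Mvp KO. The Mvp KO samples enclosed all WT samples. *Sipa1l1*, a Rap GTPase-activating protein of spines, showed the same, with 347 to 382 CPM in WT and 275 to 456 CPM in Mvp KO, and so did *Iqsec2*, an Arf exchange factor, with 112 to 119 CPM in WT and 95.8 to 141 CPM in Mvp KO. *Cnksr2*, a scaffold of Ras signalling, had 387 CPM in WT replicate 4 and 267 to 327 CPM elsewhere. *Kalrn*, an exchange factor that enlarges spines, ran from 433 to 570.3 CPM, and *Iqsec1* from 175 to 209.8 CPM. The log2 fold changes of the 6 genes lay between -0.15 (*Cnksr2*, standard error 0.119) and 0.053 (*Agap2*, standard error 0.167), and these became -0.030 and 0.11 without WT replicate 4.

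Of the spine actin genes, *Synpo* (synaptopodin, of the spine apparatus) was at 239.5, 227, 239 and 319 CPM in WT and at 188, 148, 239.9 and 279 CPM in Mvp KO. Mvp KO replicates 1 and 2 lay below all other samples, and WT replicate 4 was highest. On the log2 scale the fold change was -0.26 (standard error 0.191), and -0.13 (standard error 0.193) without WT replicate 4. *Ppp1r9b*, which brings protein phosphatase 1 to actin, was at 512, 509.7, 488 and 432 CPM in WT and at 431, 391, 496 and 634 CPM in Mvp KO. Mvp KO replicate 4 was highest and Mvp KO replicate 2 lowest. *Baiap2* (IRSp53, which bends membranes along actin) covered 202 to 345 CPM, *Ppp1r9a* (neurabin) 263 to 305 CPM and *Begain*, which binds the guanylate kinase domain of PSD-95, 35.2 to 51.7 CPM.

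**Figure D3:**
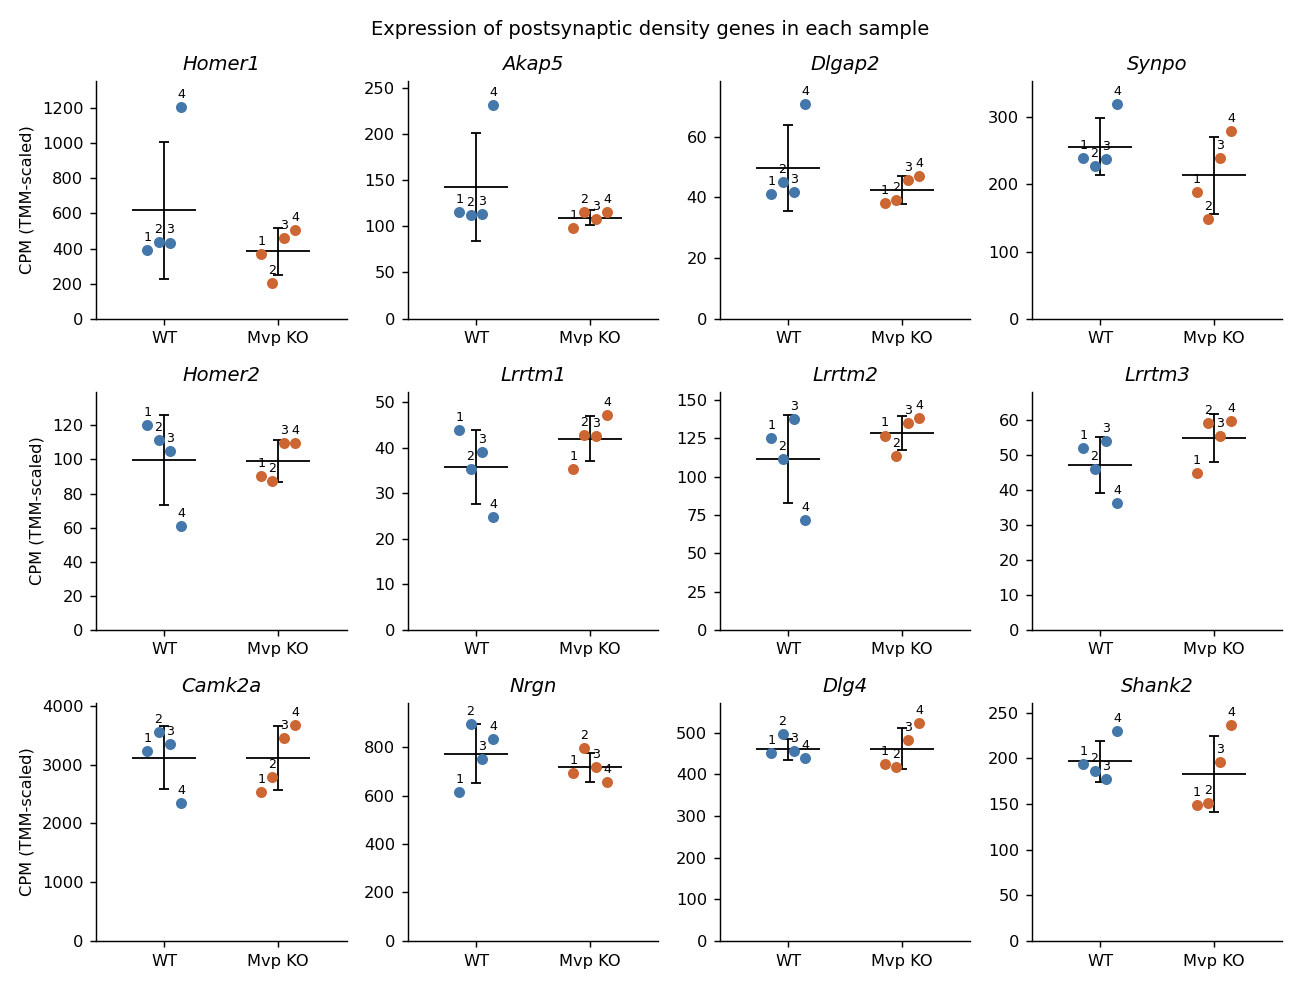
CPM of 12 of the genes in each sample (points, numbered by replicate; vertical axes start at 0), with the mean (line) and SD (bar) of the 4 WT and the 4 Mvp KO samples. WT replicate 4 lies far above the other samples for *Homer1*, *Akap5* and *Dlgap2* and below them for *Homer2*, *Lrrtm1*, *Lrrtm2* and *Lrrtm3*, and it lies inside their range for *Nrgn* and *Dlg4*.

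Over the 37 genes, WT replicate 4 was the highest of 8 samples for 12 (29.2% of all genes) and the lowest for 7 (32.5% of all genes). It lay at least 1.5-fold above the median of the other 7 samples for *Homer1*, *Akap5* and *Dlgap2*, 3 of 37, where 10.3% of all genes did, and at least 1.5-fold below it for *Homer2*, *Lrrtm2* and *Lrrtm1*, 3 of 37, where 14.0% of all genes did. These counts are near or below what the shares of all genes give. The SD of the departures over the 37 genes, in log2 CPM, was 0.462 in this sample and 0.0688 to 0.265 in the other 7. The departures went in both directions within the guanylate kinase, SHANK, Homer, CaM kinase II, neuroligin, GTPase regulator and spine actin families. They were upward for all SAPAP genes, *Nrgn* and *Akap5*, and downward for all leucine-rich repeat adhesion genes. These are signs only, and some departures were small. For *Lrrc4* (-0.026) and *Lrrtm4* (-0.13) this sample lay inside the range of the others. The same held for *Dlg2* (0.015), the only guanylate kinase gene with an upward departure. The 37 genes summed to 12534 CPM in this sample against 10553 to 13335 CPM elsewhere.

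**Figure D4:**
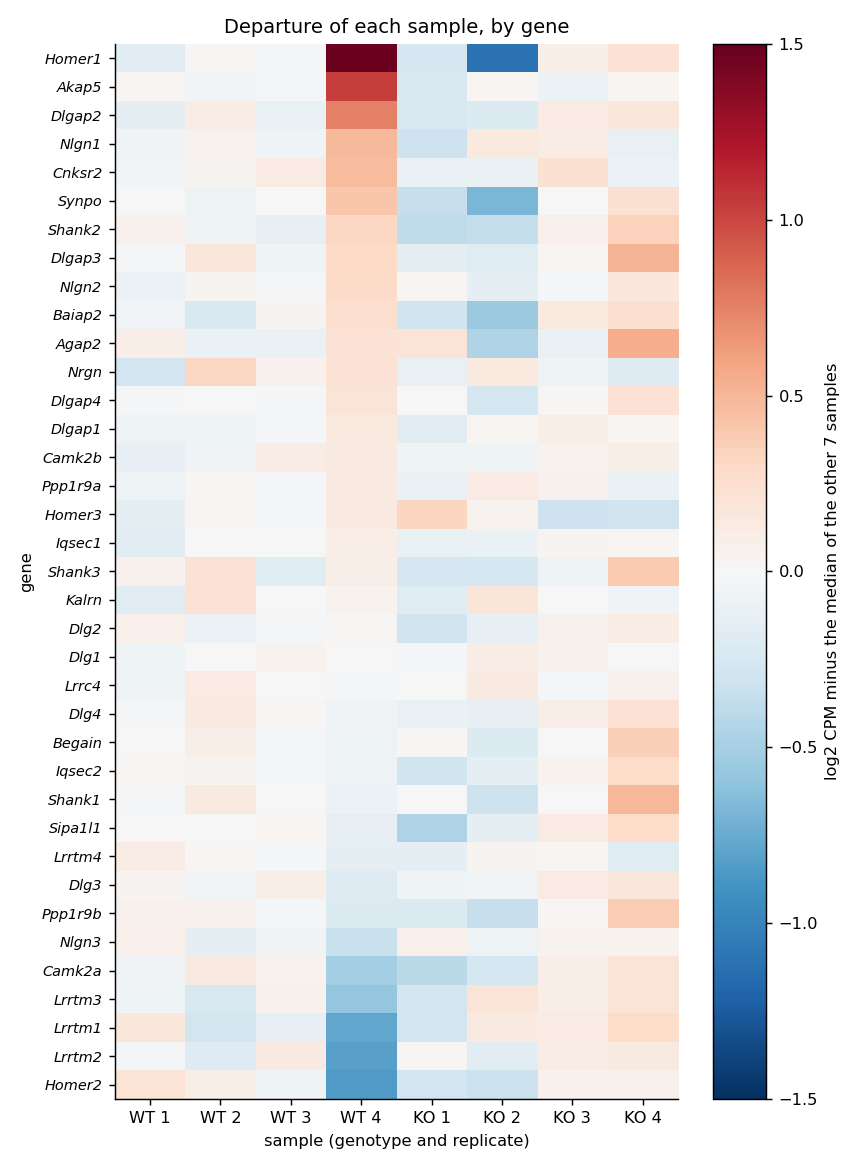
Departure of each sample (columns) from the median of the other 7 samples in log2 CPM (color, red above and blue below), for each of the 37 genes (rows, ordered by WT replicate 4). The column of WT replicate 4 runs from 1.47 for *Homer1* to -0.85 for *Homer2*, and Mvp KO replicate 2 is lowest for *Homer1* at -1.10.

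Other genes moved in the same sample. Of 13 genes that neurons raise after activity, all 13 lay at least 1.5-fold above the median of the other samples in WT replicate 4 (10.3% of all genes). Their summed level was 4003 CPM against 717 to 1632 CPM elsewhere. Of the 5 excitatory neuron markers named above, 4 were highest of 8 there, *Slc17a7* at 2731 CPM where the others lay between 1335 and 1678 CPM, while *Neurod6* was lowest at 94.2 CPM with 122 to 147.5 CPM elsewhere. Summed markers were at 1782 CPM against 842 to 1031 CPM for interneurons. Of the 7 interneuron markers 4 (*Gad1*, *Gad2*, *Slc32a1* and *Sst*) were highest there, *Vip* was lowest, and *Pvalb* and *Lhx6* lay inside the range of the others. The 7 oligodendrocyte markers summed to their lowest value there, 1311 CPM against 1513 to 5608 CPM. The 6 striatal neuron markers summed to 181 CPM there against 90.7 to 115 CPM elsewhere, with 4 of them highest and 1 lowest of 8. The 5 endothelial markers summed to 162 CPM against 169 to 240 CPM, while astrocyte and microglia sums lay inside the range of the others. The part of these genes and cells in the departures of *Homer1*, *Akap5* and the other postsynaptic genes was not tested.

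Among the other 7 samples, the Mvp KO samples took most of the extreme values. Mvp KO replicate 4 was the highest of 8 samples for 17 of the 37 genes (12% of all genes), among them the 3 SHANK genes, *Dlg2*, *Dlg3* and *Dlg4*. Mvp KO replicate 2 was the lowest for 12 (13.6% of all genes) and Mvp KO replicate 1 for 11 (13.8% of all genes). The highest of these 7 samples was at least 1.5 times the lowest for 11 of the 37 genes (35.5% of all genes), namely the 3 SHANK genes, *Homer1*, *Homer3*, *Dlgap3*, *Sipa1l1*, *Agap2*, *Baiap2*, *Synpo* and *Ppp1r9b*. The 7 oligodendrocyte markers summed to 5608, 3832, 1934 and 1513 CPM in Mvp KO replicates 1 to 4 and to 1716, 2147, 2775 and 1311 CPM in WT replicates 1 to 4. Their log2 fold changes were all above 0, from 0.53 to 0.81. The median was 0.67 (median standard error 0.40), and 0.52 without WT replicate 4. By edgeR 0 of the 7 had an unadjusted p under 0.05, against 1.56% of all genes. The replicates with the lowest postsynaptic values, Mvp KO 1 and 2, had the highest oligodendrocyte sums.

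The relation of these departures to base composition differed between samples. Over the 37 genes, the departure in Mvp KO replicate 4 had a Spearman correlation of 0.618 with the GC content of the longest transcript (0.178 over 16894 genes). It was 0.163 in Mvp KO replicate 1 (-0.000165 over those genes), -0.404 in Mvp KO replicate 2 (-0.225) and -0.449 in Mvp KO replicate 3 (-0.00351). In WT replicates 1 to 4 it was 0.0721 (-0.128), 0.224 (0.0855), -0.327 (0.0507) and 0.0789 (0.0592). The points share libraries, and the 37 genes have a median GC content of 52.6% against 49.4% for all genes tested. The part of oligodendrocyte RNA or of base composition in the differences between Mvp KO samples was not tested.

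Other postsynaptic genes were read from 5 wider lists of scaffold, adhesion, kinase and phosphatase, GTPase regulator and spine actin genes. Of 88 genes, all tested, 0 passed the adjusted p, and 0 higher and 1 lower gene had an unadjusted p under 0.05 by the same test of edgeR, the median log2 fold change being -0.031, and 0.0052 without WT replicate 4. Among all genes 0.863% were lower at that p, so that a single gene of 88 is near the background. That gene was *Camk2n2*, which encodes an inhibitor of CaM kinase II, at 29.2, 38.8, 32.4 and 38.5 CPM in WT and 24.9, 30.5, 26.9 and 30.8 CPM in Mvp KO. Its groups overlapped, and the log2 fold change was -0.30 (standard error 0.114, unadjusted p 0.0277, adjusted p 0.969). Without WT replicate 4 it was -0.24 with an unadjusted p of 0.0571 by edgeR, no longer under 0.05. The next smallest p values belonged to *Flrt2* (log2 fold change 0.22, standard error 0.109), *Tiam1* (-0.22, standard error 0.118) and *Agap1* (0.21, standard error 0.116), and they became 0.13, -0.11 and 0.10 without that sample. Of 6 genes of the inhibitory postsynapse, among them *Gphn* (gephyrin), 0 passed the adjusted p and 0 had an unadjusted p under 0.05, with a median log2 fold change of -0.062 that turned to 0.0072 without WT replicate 4.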

How the data were processed

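Total RNA of cingulate cortex was made into stranded libraries of polyadenylated RNA and read as single ends. The authors trimmed reads with cutadapt 1.10, removed ribosomal and spike-in reads with Bowtie2 2.2.8, mapped to mm10 with STAR 2.5.3a and counted with HTSeq 0.6.1p1, and the deposited table holds these raw counts per gene. The strand setting of the counting is not given in the sources used here. RNA of low integrity was not sequenced.

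The 8 columns were grouped by genotype from their labels. All genes kept by filterByExpr (minimum count 10) were fitted with edgeR 4.0.16 in R 4.3.3 by TMM scaling and the quasi-likelihood test with robust dispersions, genotype being the only term, and p values were adjusted over all genes tested (Benjamini-Hochberg, threshold 0.05). The common biological coefficient of variation was 18.3%. Nothing in the sources ties samples to littermates, and p values measure the spread between these samples. Symbols, lengths and overlaps came from GENCODE vM21 (53274 of 53379 identifiers found). *Insyn2a*, 1 of 188 listed genes, had no identifier in the table. Alternatives were DESeq2's size factors, DESeq2 1.42.0, limma 3.58.1 voom with quality weights, no filter, 10 counts in every sample, non-robust dispersions, a replicate block and leaving out each sample. An oligodendrocyte score as a covariate, and other scalings and left-out samples for the count of groups that do not overlap, were added after seeing the data. Fits were tested on simulated counts, drawn independently for each gene and with no sample set apart. Those tests therefore do not cover a sample such as WT replicate 4 or shifts shared by many genes. No samples of a genotype held the same library, since the chi-square per gene between them was 7.04 to 96.3. Depth was 28456504 to 42854368 counts a sample, so the spread between samples, not counting error, limits most genes.

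The members, the wider lists and the marker lists were chosen with earlier results of these data known. Named genes were *Mvp*, all members, and of the wider lists the 4 with the smallest unadjusted p. Values in every sample were given for the 6 members with the smallest p, the 6 farthest from the other samples in WT replicate 4 and the highest of each family per length. *Gphn*, single marker genes and the 5 GTPase regulators of the closing observations were named outside that rule, after values had been seen. Some listed genes are not reported here by name.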

Additional observations from a re-analysis of the deposited data

Results flagged for a closer look

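In 76 groups of 4 samples (the 37 genes and *Mvp* in each genotype), the distance from the highest or lowest sample to the next was divided by the range of the group. This exceeded the 95% limit of Dixon in 8 groups, and in 8.50% of the groups when all genes tested were taken. Independent groups would give 3.8 by chance, but these groups are genes read in the same 8 samples, so that number is no fair comparison. In 6 of the 8 groups above the limit the sample was WT replicate 4, which stood apart in this way for 10.3% of all genes. It stood above the other 3 replicates for *Homer1* at 1205 CPM (ratio 0.942), for *Akap5* at 231 CPM (0.970), for *Dlgap4* at 179 CPM (0.894), for *Nlgn1* at 131 CPM (0.889), for *Dlgap2* at 70.9 CPM (0.869) and for *Synpo* at 319 CPM (0.865). The same sample stood apart over all genes, and genes of neuronal activity were high in it. In Mvp KO, replicate 3 was above the others for *Cnksr2* at 327 CPM (ratio 0.971), where the other 3 replicates lay between 267 and 269 CPM. It was also above them for *Mvp* at 2.13 CPM (ratio 0.903). Over all genes it stood apart in this way for 0.532%. What set these samples apart was not tested.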

How the results depend on the processing

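For the 37 postsynaptic genes and *Mvp*, 46 results were recomputed, giving 684 values under alternatives, of which 588 stayed on the same side of 0 and of the threshold or moved little, and 0 of the 37 genes passed the adjusted p in any of these fits. The limits are 4 samples a group, 1 sample that stands apart and oligodendrocyte sums that differ between samples. Signs of log2 fold changes turned under some alternative for 24 genes and were kept for 13, *Homer1*, *Akap5*, *Synpo* and *Lrrtm1* to *Lrrtm4* among the latter. The cause was not tested.

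With the replicate number as a block, 2 of the 37 genes had an unadjusted p under 0.05, namely *Homer1* (log2 fold change -0.59) and *Synpo* (-0.29), in place of 0, where 1.94% of all genes did. Nothing in the sources ties samples with the same number beyond that number. The correlations between such samples, of departures from the group means, were 0.0548, 0.287, -0.00671 and 0.0507. They were not set against those of samples with different numbers, so they cannot show whether a pairing exists. The block also turned *Homer2* to 0.029, *Sipa1l1* to -0.022 and *Ppp1r9b* to -0.015, and *Mvp*, at -2.07, did not pass it (adjusted p 0.0850, edgeR's quasi-likelihood test). With the oligodendrocyte score, chosen after seeing the data, *Mvp* at -2.06 did not pass either (adjusted p 0.0805 from the same test), and with each sample left out in turn it ran from -2.22 to -1.99 and passed in 2 fits, those without WT replicate 4 or Mvp KO replicate 3.

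Across those 8 fits, the count of genes at an unadjusted p under 0.05 ran from 0 to 1 (*Lrrtm3* without Mvp KO replicate 1, where 1.5% of all genes did), and the count of genes whose groups did not overlap from 0 to 1 (1 without Mvp KO replicate 1, against 4.03% of all genes, and 1 without Mvp KO replicate 3, against 3.42%).

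DESeq2's size factors turned *Sipa1l1* to -0.0013 and DESeq2's Wald test to -0.0012. With limma voom the log2 fold change became 0.010 for *Dlg2*, 0.059 for *Shank2*, 0.046 for *Shank3*, 0.050 for *Dlgap1*, 0.032 for *Dlgap2*, 0.081 for *Dlgap3*, 0.034 for *Dlgap4*, 0.010 for *Nlgn1*, 0.021 for *Nlgn2*, 0.031 for *Iqsec1*, 0.035 for *Iqsec2*, 0.040 for *Baiap2* and 0.024 for *Ppp1r9a*. With the oligodendrocyte score it became 0.026 for *Dlg2*, 0.053 for *Shank2*, 0.061 for *Shank3*, 0.0077 for *Homer2*, 0.040 for *Camk2a*, 0.0063 for *Camk2b*, 0.035 for *Dlgap1*, 0.10 for *Dlgap3*, 0.031 for *Dlgap4*, 0.0033 for *Nlgn2*, 0.017 for *Iqsec1*, 0.077 for *Iqsec2* and 0.039 for *Baiap2*. When each sample was left out in turn, it ran from -0.062 to 0.047 for *Dlg4*, -0.18 to 0.10 for *Homer2*, -0.12 to 0.085 for *Camk2a*, -0.11 to 0.078 for *Iqsec2*, -0.20 to 0.021 for *Shank3*, -0.11 to 0.024 for *Kalrn*, -0.056 to 0.019 for *Camk2b*, -0.17 to 0.042 for *Homer3*, -0.042 to 0.035 for *Dlgap1*, -0.20 to 0.049 for *Dlgap3*, -0.12 to 0.032 for *Dlgap4*, -0.11 to 0.028 for *Nlgn2*, -0.069 to 0.023 for *Iqsec1*, -0.11 to 0.12 for *Sipa1l1*, -0.057 to 0.027 for *Ppp1r9a*, -0.15 to 0.10 for *Ppp1r9b*, -0.11 to 0.022 for *Dlg2*, -0.22 to 0.020 for *Baiap2*, -0.10 to 0.18 for *Shank1*, -0.12 to 0.18 for *Agap2* and -0.067 to 0.12 for *Begain*.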

Other observations

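Of the 23 GTPase regulators in the wider lists, none of them among the 37 genes, 14 were highest of 8 in WT replicate 4 (29.2% of all genes), 2 were lowest (32.5%), and 5 lay at least 1.5-fold above the median of the other 7 samples (10.3%). Chosen after their values were seen, the 5 were *Arhgef7*, a Rac exchange factor, at 273 CPM where the others lay between 122 and 158 CPM, *Rap1gap* at 295 CPM (150.4 to 196 CPM) and *Rap1gap2* at 703 CPM (344 to 456 CPM), which switch off Rap, *Rapgef4*, a Rap exchange factor gated by cAMP, at 1034 CPM (503 to 799 CPM), and *Rasgrp1*, a Ras exchange factor, at 1073 CPM (604 to 771 CPM). Between the genotypes their log2 fold changes ran from -0.34 for *Arhgef7* to -0.13 for *Rapgef4* and *Rasgrp1*, and 0 had an unadjusted p under 0.05 by edgeR. These values rest on WT replicate 4, since without it they were -0.038 for *Arhgef7*, 0.060 for *Rap1gap*, 0.0055 for *Rap1gap2*, 0.10 for *Rapgef4* and 0.077 for *Rasgrp1*, with the sign turned for 4 of the 5. What raised them in this sample was not tested.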
